A study of Mus musculus with 11 samples.

Results

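The subject is the nuclear-encoded genes of oxidative phosphorylation, followed while mouse embryonic stem cells became neural progenitors. Members were taken by symbol, as every gene named as a subunit or assembly factor of complex I (Nduf), a subunit of complexes II, III and IV (Sdh, Uqcr, Cox4 to Cox8) or of the ATP synthase (Atp5), with at least 10 counts in 2 or more of the 11 libraries. Of 38197 genes in the count table, 91 symbols matched and 85 passed the count minimum. The 6 that did not pass were Atp5l, Atp5l2, Cox6a2, Cox8b, Cox8c and Ndufs5. Polyadenylated RNA was sequenced from wild-type E14 cells, an embryonic stem cell line of strain 129. Days 0, 1, 2 and 3 have 2 libraries of unsorted culture each. A further 3 libraries hold cells selected by Prominin-1, which neural progenitors carry on their surface; their titles give day 3.5 and other labels give 3 days. All libraries carry the same treatment label, retinoic acid (RA), which drives hindbrain patterning, and SAG, an agonist of the hedgehog pathway, over 0 to 3 days of differentiation in monolayer. Day 0 is therefore read as the stem cells before that treatment had acted, from the titles. The labels do not say if replicate libraries stem from separate dishes, so p-values measure the spread between these libraries, which may be technical.

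Oxidative phosphorylation couples the oxidation of NADH and succinate to ATP production in the inner mitochondrial membrane. Complexes I and II pass electrons to ubiquinone, complex III passes them on through cytochrome c to complex IV, and complexes I, III and IV pump protons that the ATP synthase uses. Most subunits are nuclear genes and a few are mitochondrial ones, so complexes I, III and IV and the ATP synthase are built from both genomes, with the help of assembly factors. Embryonic stem cells are known for strong glycolysis beside respiration.

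The unsorted libraries held between 26136331 and 30384599 counts and the sorted ones between 13173674 and 17113430. The sorted libraries also carry another code in the labels, which do not say what it stands for, so sorting, day, depth and that code cannot be told apart. A list of 6 pluripotency markers (Pou5f1, Nanog, Zfp42, Esrrb, Klf4, Tdgf1) summed to between 11.3 and 15.7 CPM (counts scaled to library size) at day 3, against between 1410.0 and 1549 CPM at day 0. In the sorted libraries it summed to between 3.47 and 6.74 CPM, with Pou5f1, Nanog and Tdgf1 at 3 counts or fewer in every library. A list of 6 neural progenitor markers (Sox1, Pax6, Nes, Prom1, Fabp7, Hes5) summed to between 963 and 977 CPM at day 3 and between 1318 and 1585 CPM after sorting, against between 219 and 293 CPM at day 0. The sum of 6 neuron markers (Dcx, Elavl3, Elavl4, Stmn2, Nefm, Map2) was between 823 and 993 CPM at day 3 and between 826 and 1306 CPM in the sorted libraries, against between 323 and 359 CPM at day 0. The summed markers of extraembryonic endoderm, mesoderm and fibroblasts lay between 8.24 and 173 CPM, with the mesoderm marker Mesp1 at 3 counts or fewer in every library. In bulk RNA, fewer cells of a type and less RNA per cell cannot be told apart, and the part of cell makeup in the changes of respiratory genes was not tested.

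Together the 85 genes made up a shrinking share of the transcriptome. TMM gives each library a scaling factor, on the premise that most genes do not change between libraries. As a percentage of the library size so scaled, the 85 genes took 1.03 ± 0.00420% at day 0, 0.850 ± 0.0131% at day 1, 0.732 ± 0.00165% at day 2 and 0.664 ± 0.0174% at day 3 (SD, n = 2 libraries each). The sorted libraries stood at 0.716 ± 0.00715% (SD, n = 3). On the TMM scale the ranges of the 5 groups did not overlap. Without Atp5b and Atp5a1, the beta and alpha subunits of the ATP synthase and the most abundant pair, the share was 0.433% and 0.435% in the day 3 libraries, against 0.626% and 0.638% at day 0. Before TMM scaling, the share was 0.687 ± 0.000483% at day 3 and 0.961 ± 0.0506% at day 0 (SD, n = 2 each). The unscaled sorted libraries, at 0.693%, 0.715% and 0.746%, spanned those of day 2, at 0.733% and 0.743%. Of the 85 genes, 48 had their highest group mean at day 0, and 29 had their lowest at day 3.

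**Figure D1:**
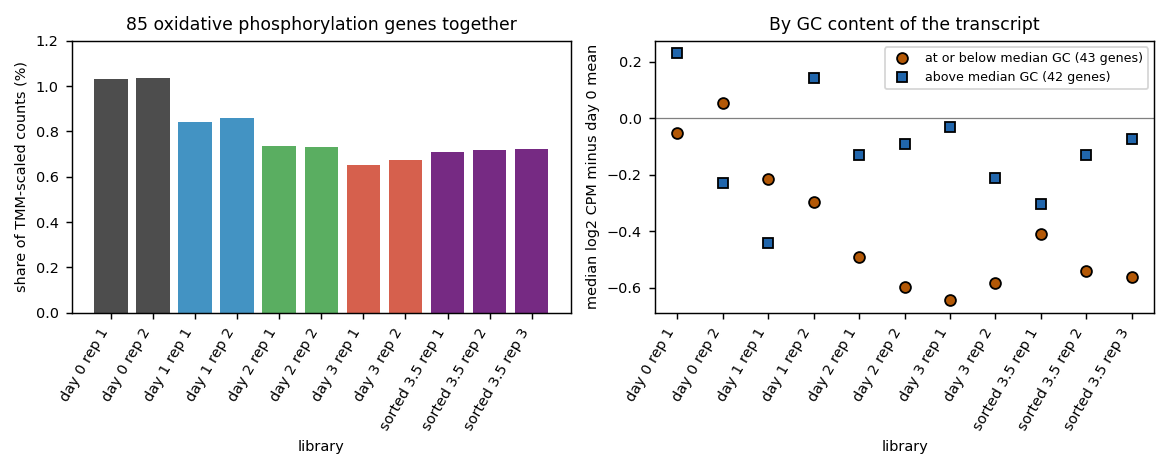
Left, share of TMM-scaled counts (%) held by the 85 genes in each of 11 libraries, in order of day. Right, median over genes of log2 CPM minus the day 0 mean, for the 43 genes at or below and the 42 genes above the median transcript GC content. The share was 1.03% at day 0 and 0.664% at day 3, and the GC-rich genes differed between the replicates of days 0 and 1.

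Each complex held genes called lower at day 3 than at day 0, but not every step gave calls. In the core and in the accessory subunits of complex I the share lower was 28.6%, near the 26.3% of all genes. It was 50% in complexes II, III and IV, 57.1% in the ATP synthase and 85.7% in the assembly factors of complex I. These shares were not adjusted for transcript GC content, with which the calls also varied. Calls came from the quasi-likelihood F test of edgeR, with p-values adjusted by Benjamini-Hochberg over 16810 genes and a threshold of 0.05, and all 85 genes were tested. Between day 3 and day 0, 37 of the 85 genes were lower (43.5%) and 0 were higher, where 26.3% of all genes tested were lower and 27.6% were higher. The shares over all genes were not matched for level. The 85 had a median of 69.0 FPKM averaged over groups, against 8.37 FPKM averaged over libraries for the genes tested. The median log2 fold change of the 85 was -0.46, a change of -27.4%, beside 0.02 over all genes. The 37 lower genes changed by between -27.3% and -88.4%, 10 of them by more than 1 log2 unit. None of the 37 had overlapping libraries, which adds little to calls drawn from the same libraries. The share without overlap among all genes called lower was not computed. Counting only whether every day 3 library lay below every day 0 library, 55 of 85 genes did so, against 38% of all genes, and 4 lay above, against 39.5%. An F test of any difference over days 0 to 3 called 29 of the 85, where 53.7% of all genes were called. The count of lower genes was 22 without the replicate 1 library of day 3, and 24 after an adjustment for transcript length. Genes called higher numbered 6 without replicate 1 of day 0, 4 under the length adjustment, 2 in DESeq2, 2 without a filter on low counts and 2 each without replicate 1 or replicate 2 of day 1.

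**Figure D2:**
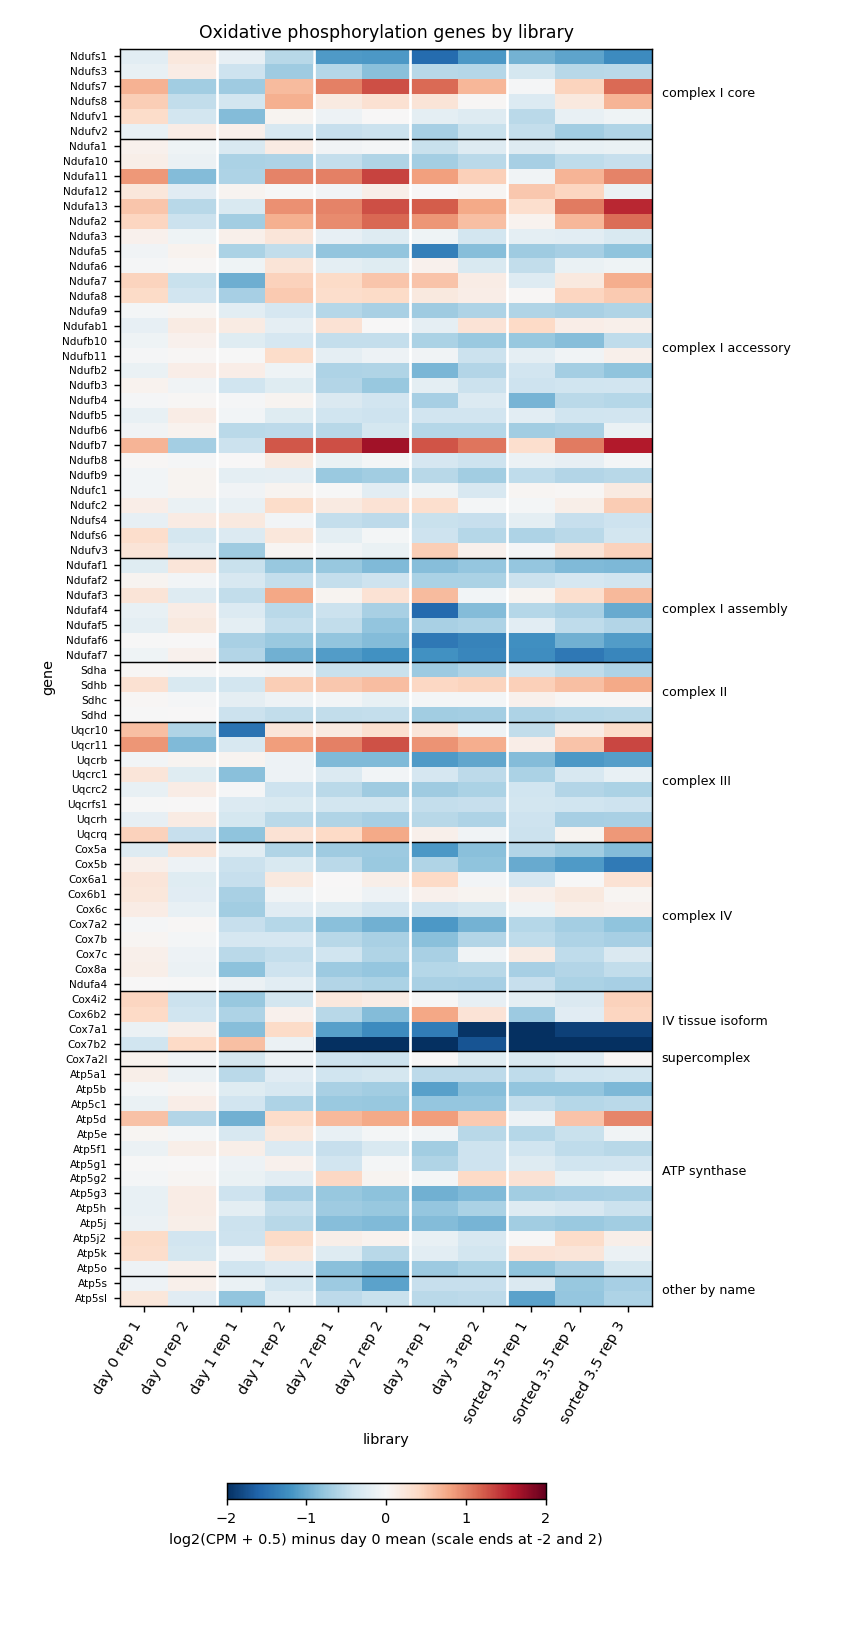
Heat map of log2(CPM + 0.5) minus the day 0 mean for 84 of the 85 genes (rows, by complex) in 11 libraries (columns, by day). Blue marks a level below the day 0 mean and red a level above it, and the scale ends at -2 and 2. Blue runs through most rows from day 2 on, while Ndufb7, Ndufa13 and Uqcr11 are red there and differ in colour between the day 0 replicates.

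By steps, 7 genes were lower at day 1 than at day 0 (8.24%, against 8.91% of all genes) and 0 were higher (12% of all genes), with a median of -0.25. They were Ndufaf7, Ndufaf6, Ndufa10, Atp5g3 and Cox7a2, with Atp5c1 and Sdhd named after their values were seen. Between day 2 and day 1, 7 others were lower (9.99% of all genes) and 0 were higher (9.65%), with a median of -0.15. These were Cox7b2, Uqcrb, Ndufs1, Ndufs4 and Ndufa4, with Atp5o and Ndufb9 named after their values were seen. All 14 were also lower at day 3 than at day 0, and 0 were lower at both steps. These overlaps are not independent, since the first step shares its day 0 libraries with the day 3 comparison. Both steps also share the day 1 libraries, with opposite sign, and the overlaps were not computed over all genes. Day 3 against day 2 gave 0 lower and 0 higher in edgeR, with 3 genes at an unadjusted p under 0.05, where 1.26% and 2.81% of all genes were called. DESeq2 called 1 gene higher there. The counts of both early steps changed with the processing: for day 1 against day 0, leaving out 1 library gave 5 lower genes without replicate 1 of day 0 and between 1 and 3 without any other, the deposited FPKM gave 0, and a GC adjustment gave 20. For day 2 against day 1, 4 genes were lower without replicate 2 of day 1 or of day 3, 2 without replicate 1 of day 1 and 1 without either library of day 2. The GC adjustment gave 18, and 12 genes were called higher without replicate 2 of day 1. Of the step calls named by rule, that of Cox7b2 held without each library in turn, and the other 9 were each lost without at least 1 library.

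**Figure D3:**
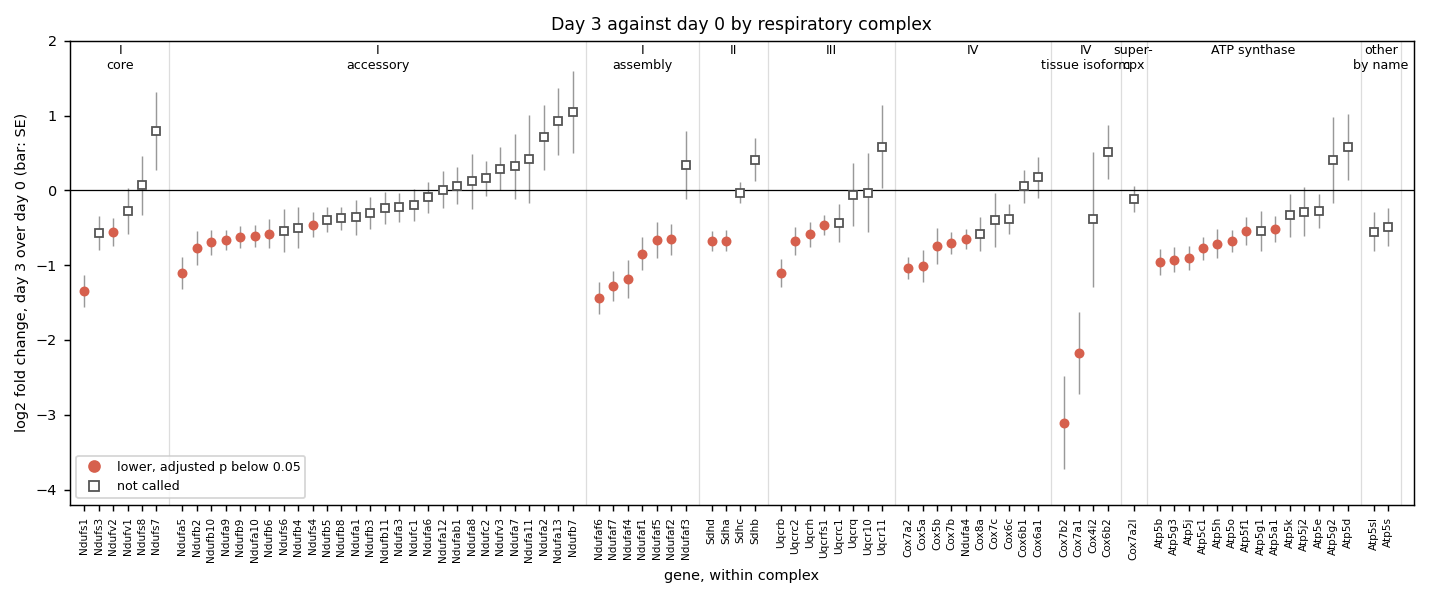
Log2 fold change of day 3 over day 0 for 84 of the 85 genes, grouped by complex and ordered within it, with bars of 1 SE from the edgeR fit on 8 libraries. Filled circles are the 37 genes lower at an adjusted p below 0.05 and open squares the genes not called. Of the 7 assembly factors of complex I, 6 are filled, Cox7b2 and Cox7a1 lie lowest at -3.11 and -2.18, and Ndufb7 lies highest at 1.05.

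Complex I takes electrons from NADH. Of its 7 nuclear-encoded core subunits, 2 fell between day 3 and day 0 (28.6%), a share near the 26.3% of all genes. Ndufs1 (chromosome 1, 63143596 to 63176833, minus strand, GRCm38), the largest iron-sulphur subunit of the NADH-oxidising arm, had 137 and 180 CPM at day 3, against 347 and 461 CPM at day 0. Both day 3 libraries lay below both day 0 libraries, a log2 fold change of -1.34 ± 0.21 (SE, edgeR adjusted p = 0.000715), and the step from day 1 to day 2 held -0.79 ± 0.21 of it (adjusted p = 0.0282). The call of that step was lost without replicate 1 of day 1 (-0.58, adjusted p = 0.155) and without either library of day 2 (adjusted p = 0.157 and 0.154). Ndufv1, which binds the flavin cofactor, had 85.9 and 82.4 CPM at day 3, against 128.4 and 76.2 CPM at day 0, so the day 0 replicates lay farther apart than the day means. It was not called (-0.28 ± 0.31).

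Of 28 accessory subunits of complex I, 8 fell (28.6%, near the 26.3% of all genes) and 0 rose, with a median of -0.27. Ndufa10, a matrix-side subunit, had 90.4 and 99.7 CPM at day 3, against 157 and 134 CPM at day 0 (-0.61 ± 0.15, adjusted p = 0.00732), and was already lower at day 1 (-0.63 ± 0.15). The call for day 3 was lost without replicate 1 of day 3 (adjusted p = 0.057), and that for day 1 without replicate 1 of day 0 or either library of day 1 (adjusted p up to 0.0836) and in the FPKM. Ndufs4, needed for a stable NADH-oxidising arm, had 68.3 and 68.0 CPM at day 3, against 83.9 and 105 CPM at day 0 (-0.46 ± 0.17, adjusted p = 0.0412). Without replicate 2 of day 0 the value was -0.29 and the call was lost (adjusted p = 0.246), as it was without either library of day 2 or of day 3, in DESeq2, in the FPKM (-0.22) and with the GC adjustment (-0.24). Ndufb8, in the membrane arm, had 43.6 and 41.6 CPM at day 3, against 56.4 and 54.4 CPM at day 0, and missed the threshold (-0.37 ± 0.16, adjusted p = 0.0707). Ndufab1, the mitochondrial acyl carrier protein, had 19.6 and 27.0 CPM at day 3, against 19.8 and 25.01 CPM at day 0, which overlapped (0.06 ± 0.25). The deposited FPKM gave Ndufab1 the opposite sign (-0.37 with a pseudocount of 1, called lower), and the gene has 2 pseudogene copies. The highest value among the accessory subunits, named after it was seen, was that of Ndufb7 at 1.05 ± 0.55, not called.

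Of 7 assembly factors of complex I, 6 fell (85.7%, against 26.3% of all genes) and 0 rose, with a median of -0.84. Ndufaf6, which acts early in the build, had 6.86 and 7.28 CPM at day 3, against 19.1 and 19.3 CPM at day 0 (-1.44 ± 0.21, adjusted p = 0.000543). In the deposited FPKM its change was -0.74 on the log2(FPKM + 1) scale and was not called. Ndufaf7, a methyltransferase, had 20.5 and 19.2 CPM at day 3, against 45.5 and 50.8 CPM at day 0 (-1.27 ± 0.20, adjusted p = 0.000700). Both were called lower at day 1, with -0.72 for Ndufaf6 and -0.77 for Ndufaf7. The day 1 call of Ndufaf6 was lost without any single library (adjusted p between 0.0562 and 0.134), and that of Ndufaf7 without replicate 2 of day 0, replicate 2 of day 1 or either library of day 2 (adjusted p up to 0.108). Ndufaf3 was the factor not called, with a log2 fold change of 0.34.

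Complex II is succinate dehydrogenase, the enzyme shared with the TCA cycle and built wholly from nuclear genes. Of the 4 genes of complex II, Sdha and Sdhd fell (50%, against 26.3% of all genes), and Sdhb and Sdhc were not called. Sdha, its flavoprotein, had 253 and 272 CPM at day 3, against 426 and 412 CPM at day 0, with day 1 at 409 and 398 CPM and day 2 at 309 in both libraries. All day 3 libraries lay below all day 0 libraries (-0.67 ± 0.14, adjusted p = 0.0030), but the deposited FPKM gave -0.24 on the log2(FPKM + 1) scale and no call. Sdhd, a membrane anchor, fell to a similar degree (-0.68 ± 0.13, adjusted p = 0.00223). Sdhb, the iron-sulphur partner of Sdha, had 66.7 and 68.0 CPM at day 3, against 61.8 and 40.2 CPM at day 0. Its day 3 libraries were higher than both day 0 libraries, but the day 0 replicates differed more than the means, and it was not called (0.41 ± 0.29, adjusted p = 0.256).

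The promoters of Sdha, Sdhd and Sdhb are shown because nuclear respiratory genes are known to share binding motifs of NRF1, GABPA (NRF2) and YY1. Sdha and Sdhd were called lower and Sdhb was not. The genes also differ in transcript GC content, at 48.5% for Sdha, 49.4% for Sdhd and 54.9% for Sdhb, where the median of the 85 was 50.3%. The sequences are from RefSeq on GRCm38.p6, read on the strand of the gene from 150 bases before its start to 30 bases after, and capitals mark motif matches on either strand.
Sdha (chr13:74350211-74350390, minus strand): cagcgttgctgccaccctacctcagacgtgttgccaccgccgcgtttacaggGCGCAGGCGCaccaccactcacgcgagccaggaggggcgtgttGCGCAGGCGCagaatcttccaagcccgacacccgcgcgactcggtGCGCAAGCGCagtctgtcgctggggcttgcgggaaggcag
Sdhd (chr9:50603820-50603999, minus strand): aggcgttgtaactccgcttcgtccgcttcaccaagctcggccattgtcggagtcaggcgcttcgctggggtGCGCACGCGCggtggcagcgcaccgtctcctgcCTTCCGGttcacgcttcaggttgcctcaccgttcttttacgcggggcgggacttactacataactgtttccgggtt
Sdhb (chr4:140961121-140961300, plus strand): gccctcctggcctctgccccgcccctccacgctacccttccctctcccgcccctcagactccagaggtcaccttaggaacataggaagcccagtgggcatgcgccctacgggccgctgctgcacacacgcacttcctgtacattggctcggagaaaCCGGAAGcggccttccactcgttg
Sdha holds 3 NRF1 matches, Sdhd 1 NRF1 and 1 GABPA match, and Sdhb 1 GABPA match. The motifs searched on both strands were GCGC and TGCGC parted by any base for NRF1, CCGGAAG for GABPA and AAGATGGC for YY1, in windows from 250 bases before to 50 after the start, where matches of different motifs could overlap. A window was found for 73 of the 85 genes. NRF1 letters were in 24.7% of them, against 10.3% of tested genes and 5.19% of all genes with a window. GABPA letters were in 21.9%, against 17.8% and 9.93%, and YY1 letters in 15.1%, against 4.7% and 3.19%. At least 1 of the motifs was present in 51.6% of the 31 lower genes with a window and in 54.8% of the 42 that were not called, so a match was not more frequent among the lower genes. NRF1 letters were in 29% of the lower genes and 21.4% of those not called, which is 9 genes each.

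Complex III passes electrons from ubiquinol to cytochrome c, and 4 of its 8 genes fell (50%, against 26.3% of all genes). Uqcrfs1, the Rieske iron-sulphur protein, had 120 CPM in both day 3 libraries, against 165 and 167 CPM at day 0 (-0.46 ± 0.13, adjusted p = 0.0145). Its call was lost under the length adjustment, in the FPKM values, and without any of 4 single libraries (replicate 2 of day 0, replicate 2 of day 2 and both of day 3), where the adjusted p reached 0.0628. Uqcrb, which stabilises the cytochrome b core, had 13.6 and 14.5 CPM at day 3, against 29.4 and 31.6 CPM at day 0 (-1.11 ± 0.19, adjusted p = 0.00108). It has 3 near-identical pseudogene copies, so its level is uncertain. Uqcrc1, a core protein, had 151 and 133 CPM at day 3, against 226 and 160 CPM at day 0, and was not called (-0.44 ± 0.25). Uqcrh, the hinge protein and among the 3 most abundant of the 85 per length, had 113 and 108 CPM at day 3, against 147 and 186 CPM at day 0 (-0.59 ± 0.16, adjusted p = 0.0125). Its call was lost without replicate 2 of day 0 (-0.41, adjusted p = 0.0962), without either library of day 3, and under the length adjustment.

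Complex IV, cytochrome c oxidase, reduces oxygen. Among 10 of its broadly expressed genes, Ndufa4 included, 5 fell (50%, against 26.3% of all genes). The symbol rule covers Cox4i1, but the counts hold no gene under that symbol, so it is not one of these 10. Cox7a2, the broadly expressed form of subunit VIIa, had 60.5 and 69.7 CPM at day 3, against 131.6 and 137 CPM at day 0 (-1.04 ± 0.15, adjusted p = 0.000451). Cox5a had 62.4 and 77.4 CPM at day 3, against 117 and 166 CPM at day 0 (-1.01 ± 0.21, adjusted p = 0.00371). Ndufa4, first purified with complex I and now placed in complex IV, had 110 and 108 CPM at day 3, against 173 and 171 CPM at day 0 (-0.66 ± 0.13), a call lost under the length adjustment (-0.39, adjusted p = 0.0611). Cox8a missed the threshold (-0.58 ± 0.23, adjusted p = 0.0546), and Cox6b1 and Cox6a1 had log2 fold changes of 0.05 and 0.17 with overlapping libraries. With a GC adjustment Cox6a1 was called lower (-0.61). Cox7a2l, a factor that joins complexes III and IV in supercomplexes, had 61.05 and 51.3 CPM at day 3, against 64.4 and 57.8 CPM at day 0, which overlapped (-0.11 ± 0.17).

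Complex IV also has isoforms known from particular tissues, and 4 of them passed the count minimum at low levels. Cox7b2 (chromosome 5, 71442824 to 71548205, minus strand), known from testis, had 2.14 and 4.07 CPM on day 0, 4.76 and 2.72 CPM on day 1, 0.260 and 0.182 CPM on day 2, then 0.157 and 0.553 CPM on day 3. It was lower at day 2 than at day 1 (-4.05 ± 0.67, adjusted p = 0.00381) and at day 3 than at day 0 (-3.11 ± 0.62, adjusted p = 0.00267), the largest falls among the 85. All 3 sorted libraries held 3 counts or fewer, so no fold is given for them. Cox7a1, known from heart and skeletal muscle, had 1.01 and 0.520 CPM at day 3, against 3.16 and 3.81 CPM at day 0 (-2.18 ± 0.54, adjusted p = 0.00833). That call was lost without replicate 2 of day 3 (adjusted p = 0.0641). Cox6b2, known from testis, had 21.4 and 15.0 CPM at day 3, against 16.4 and 9.17 CPM at day 0, which overlapped (0.51 ± 0.36). Cox4i2, known from lung, was at or below 0.662 CPM in every library and was not called. Below the count minimum, the testis isoform Cox8c had 8 and 5 counts on day 0, 9 and 8 counts on day 1, 3 and 4 counts on day 2, then 0 in both day 3 and all 3 sorted libraries. A count of 0 allows up to 3 counts in a library. The muscle isoforms Cox6a2 and Cox8b had 4 counts or fewer in every library.

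**Figure D4:**
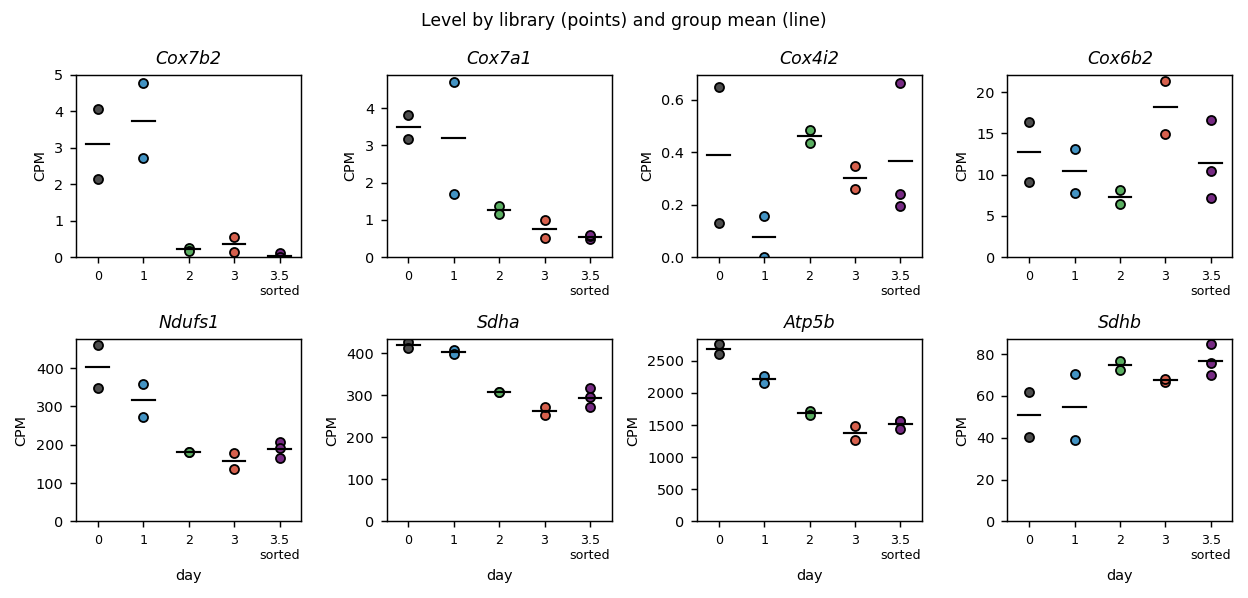
CPM by day for the 4 tissue isoforms of complex IV (top) and for Ndufs1, Sdha, Atp5b and Sdhb (bottom), where points are libraries and lines group means, on axes from 0. Cox7b2 lies between 2.14 and 4.76 CPM at days 0 and 1 and at or below 0.553 CPM later, while Sdhb lies higher at day 3 than at day 0 without being called.

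The ATP synthase held the most abundant genes, and 8 of its 14 genes fell (57.1%, against 26.3% of all genes). Atp5b (chromosome 10, 128083273 to 128090391, plus strand), the catalytic beta subunit, had 1265 and 1489.6 CPM at day 3, against 2605 and 2769 CPM at day 0 (-0.96 ± 0.17, adjusted p = 0.00147). Day 1 stood at 2265 and 2159.7 CPM and day 2 at 1714 and 1656 CPM, so the libraries of each day lay below those of the day before. Atp5a1, the alpha subunit, had 916 and 918 CPM at day 3, against 1435 and 1208 CPM at day 0 (-0.52 ± 0.18, adjusted p = 0.0313). That call was lost without replicate 1 of day 0 (adjusted p = 0.154), without either library of day 2 or of day 3, and in the FPKM. Per length, Atp5b averaged 1756 FPKM and Atp5a1 613 FPKM over the 5 groups, where the median of the 85 genes was 69.0 FPKM. The c subunit, which forms the rotor ring, comes from 3 genes. Atp5g3 had 188 and 199.6 CPM at day 3, against 332 and 407 CPM at day 0 (-0.92 ± 0.16, adjusted p = 0.00135). Atp5g1 and Atp5g2 had only 4.43 and 5.07 CPM and 0.377 and 0.683 CPM at day 3, and neither was called (-0.54 ± 0.27 and 0.41 ± 0.58). Atp5s and Atp5sl, which match by name and were kept apart from the subunits, were not called either (-0.49 and -0.56).

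Those low counts do not match the deposited FPKM, which per length put Atp5g3 at 349, Atp5g2 at 76.1 and Atp5g1 at 64.5 FPKM on average. The ratio of counts per kilobase to FPKM, set to 1 for the median gene, was 0.0083 for Atp5g2, 0.0213 for Atp5g1 and 0.0277 for Cox7c, the lowest of the 84 genes with a ratio. Length was that of the longest transcript, protein-coding where there was one, and the ratio depends on it. For Atp5g1 this length was 4715 bases, where the reading frame has 411. The ratio was under 0.2 in 10 of the 85 genes (11.8%), against 6.75% of 13129 tested genes. A search of GENCODE M21 transcripts for pseudogenes at least 95% identical over at least 50% of the reading frame found copies of 17 of these 84 genes. Their median ratio was 0.316, against 0.749 for the 67 genes without such a copy. A ratio under 0.2 was found in 5 of the genes with a copy and in 5 of those without. The sequences show how little separates gene and copy. Cox7c (chromosome 13, 86044816 to 86046904, minus strand, GRCm38) and the processed pseudogene Gm12338 (chromosome 11, 75599763 to 75599954) are identical over all 192 bases of the reading frame, shown here in full.
Cox7c: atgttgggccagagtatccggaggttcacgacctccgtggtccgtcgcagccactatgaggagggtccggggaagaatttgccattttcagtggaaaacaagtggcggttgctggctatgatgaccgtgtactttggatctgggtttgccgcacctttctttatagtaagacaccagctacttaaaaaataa
Atp5g1 (chromosome 11, 96068852 to 96075670, minus strand) and the processed pseudogene Gm10039 (chromosome 11, 100361716 to 100362126) are identical at 410 of 411 bases, and capitals mark the difference in bases 292 to 411 of the reading frame.
Atp5g1: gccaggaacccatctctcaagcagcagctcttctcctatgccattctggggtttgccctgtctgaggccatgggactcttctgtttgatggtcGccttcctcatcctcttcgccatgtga
Gm10039: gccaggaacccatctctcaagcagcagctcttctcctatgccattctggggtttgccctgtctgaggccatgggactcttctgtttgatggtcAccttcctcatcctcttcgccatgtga
No source used here says how reads that match several places were counted, so levels of these genes are uncertain. The part of the copies, or of the transcript length used, in the low ratios was not tested. Genes with low ratios did not make up the calls: 2 of the 10 were lower at day 3 than at day 0, and 35 of the other 75.

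**Figure D5:**
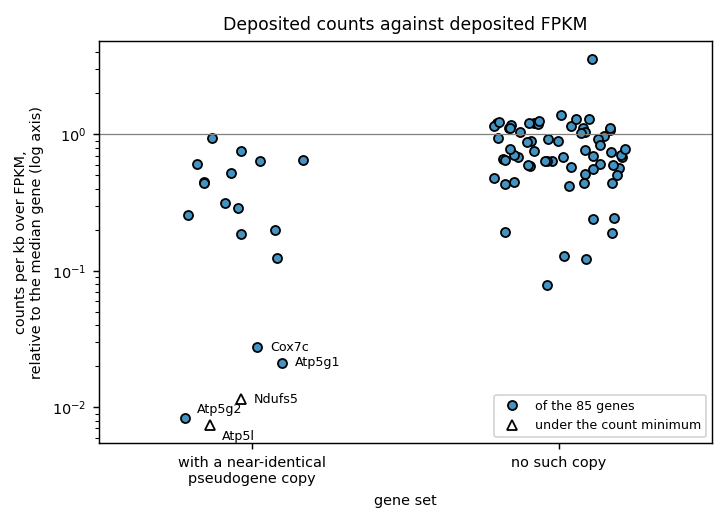
Counts per kilobase over FPKM, relative to the median gene, on a log axis, for genes with a near-identical pseudogene copy (left) and without (right). Circles are members and triangles the genes Atp5l and Ndufs5, which fell under the count minimum. Atp5l2, annotated as a pseudogene, has no reading frame to search and is not drawn (its ratio was 0.0004). The lowest points drawn, Atp5l, Atp5g2, Ndufs5, Atp5g1 and Cox7c, all have a copy. Under 0.2 lie 5 members with a copy and 5 without.

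Base composition moved with the result. Of the 43 genes at or below the median GC content of 50.3%, 27 were lower at day 3 than at day 0 (62.8%). Their median was -0.59. Of the 42 GC-richer genes, 10 were lower (23.8%), with a median of -0.16. Among all genes tested, 26.3% were lower, a share that the GC-richer genes did not exceed. The GC-rich genes also differed between replicates, by a median of 0.46 log2 units at day 0 (replicate 1 higher) and -0.55 at day 1 (replicate 1 lower). Across all genes, the genes of highest GC content minus those of lowest (top and bottom 25%) deviated by -0.01 and -0.83 log2 units in the day 0 libraries and by -0.82 and 0.11 in the day 1 libraries, against values between 0.17 and 0.49 at days 2 and 3. With a GC adjustment, 45 of the 85 were lower and 0 higher between day 3 and day 0. Transcripts of the 85 were short, with a median of 971 bases against 2916 for all genes tested. Of the 43 shorter ones 17 were lower (39.5%), and of the 42 longer ones 20 (47.6%).

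Sorting was not followed by calls. In a fit on all 11 libraries and 17006 genes, sorted day 3.5 against day 3 gave 0 higher and 0 lower genes among the 85 in edgeR, with 5 at an unadjusted p under 0.05, and 0 in DESeq2. Of all genes, 0.435% were higher and 2.93% lower. The median log2 fold change was 0.07. Sdha had 317, 295 and 272 CPM in the sorted libraries, against 253 and 272 CPM at day 3, a difference of 0.17 ± 0.11. Ndufs1 had 208, 192 and 167 CPM in the sorted libraries, against 137 and 180 CPM at day 3, which overlapped (0.25 ± 0.18). The largest change among the named genes with a fold was that of Cox6b2 at -0.67 ± 0.37, with overlapping libraries and an adjusted p of 0.425.

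Among related genes, the mitochondrially encoded subunits were not called. Of 13 in the table, 8 were tested, 0 were called between day 3 and day 0 in edgeR, with 0 at an unadjusted p under 0.05, and their median was -0.13. Their summed level was 13854 and 18344 CPM at day 3, against 14159.6 and 22661 CPM at day 0, which overlapped. The called genes of the nuclear lists stood beside 26.3% lower and 27.6% higher among all genes tested between day 3 and day 0. Of 30 other assembly factors tested, 11 fell (36.7%) and 1 rose, including Sco1, which delivers copper to complex IV (-1.14), and Bcs1l, which inserts the Rieske protein (-1.15). Of 12 carriers and transport genes, 7 fell (58.3%) and 0 rose, including Vdac1, the outer membrane channel (-1.14), and Slc25a3, the phosphate carrier (-0.93). The TCA cycle list had 12 of 18 lower (66.7%) and 1 higher: Idh3a (-1.70) and Pdhb (-1.59) fell, and Idh2, the NADP-linked isocitrate dehydrogenase, rose (1.27). Mitochondrial ribosomal protein genes had 41 of 72 lower (56.9%) and 1 higher. Cytosolic ribosomal protein genes, with 23 of 75 lower (30.7%) and 0 higher, lay near the share of lower genes overall. Glycolysis had 7 of 20 lower (35%) and 3 higher, with Pdk1 (-3.02), the glucose transporter Slc2a3 (-2.75) and Hk2 (-1.87) among those that fell. Slc2a3 was also lower in the sorted libraries than at day 3 (-1.74).

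In the list of mitochondrial biogenesis, 8 of 15 genes fell (53.3%, against 26.3% of all genes) and 2 rose, against 27.6%. Gabpa, the DNA-binding part of NRF2, had 135 ± 20.2 CPM at day 3 and 295 ± 49.6 CPM at day 0 (SD, n = 2 each), a log2 fold change of -1.12. Tfb1m, which methylates mitochondrial ribosomal RNA, had 19.1 ± 1.94 CPM at day 3 and 38.8 ± 2.90 CPM at day 0 (-1.02). Ppargc1a, a coactivator known to raise mitochondrial gene expression, moved the other way, with 8.01 ± 1.62 CPM at day 3 and 0.0428 ± 0.0606 CPM at day 0 (SD, n = 2 each). It was called higher, and since both day 0 libraries held 3 counts or fewer, no fold is given.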

How the data were processed

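Per the labels, polyA-selected Illumina TruSeq libraries were made from RNA isolated by a ZymoPure kit. The submitters' processing notes list TopHat2 2.0.4, HTSeq 0.6.1, limma and Cufflinks 2.1.1, without roles, and the builds mm10 and GRCm38. Neither strand setting nor annotation is stated there, so overlapping and antisense genes are uncertain. The authors deposited gene counts, and since 104 of 38197 genes hold fractions the table was treated as estimated counts and rounded. The deposited log2 (voom) values equal log2 CPM recomputed from those counts to within 5.15e-14. FPKM values came from the authors and were used only to compare levels per length and as an alternative.

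Counts were tested in edgeR 4.0.16 (R 4.3.3) with TMM scaling, filterByExpr at a minimum of 10 counts, the quasi-likelihood F test and Benjamini-Hochberg adjustment over all genes tested. The 4 unsorted days share a fit of 8 libraries, and the sorted libraries were compared with day 3 in a fit of 11. An SE is the log2 fold change over the square root of F, and CPM levels use TMM factors over 11 libraries. Gene positions, lengths and GC come from GENCODE M21 on GRCm38, by symbol. Length and GC are those of the longest transcript, protein-coding where there was one. Members, gene lists and tests were chosen with earlier results of these data known. Members named were a fixed panel, the 4 largest called changes in each direction of a comparison, and the 3 highest and 3 lowest by FPKM. A gene of that panel is not reported here or shown by name in figures, but is included in all counts. Other members and genes were named after their values were seen, apart from up to 3 called genes of each related list with the smallest adjusted p. The fits were tested on simulated data. Replicate numbers were not used as pairs in the main fits. The correlation of same-numbered deviations lay between -0.449 and 0.181, which cannot exclude a pairing, since single libraries also deviated by GC content. Alternatives were RLE, DESeq2 1.42.0, no filter on low counts, other libraries in the fit, a replicate block, GC and length offsets, FPKM and voom values in limma 3.58.1, and leaving out each library.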

Additional observations from a re-analysis of the deposited data

Results flagged for a closer look

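A signal in values outside the comparisons was seen for 3 genes that matched by symbol and fell under the count minimum. Atp5l, subunit g of the ATP synthase, averaged 47.6 FPKM over the 5 groups but held 9 counts or fewer in every library. Its reading frame has 7 pseudogene copies in GENCODE M21, the closest identical over 309 bases. Atp5l2, annotated as a pseudogene of it, averaged 59.8 FPKM with 2 counts or fewer in every library. Ndufs5, an accessory subunit of complex I, averaged 24.8 FPKM with 12 counts or fewer in every library, and has a copy 99.4% identical over 319 bases. No group had 4 or more libraries, so single libraries were not screened for distance from the others.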

How the results depend on the processing

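Between day 3 and day 0 the median log2 fold change of the 85 genes was below 0 under all settings tried, and the count lower exceeded the count higher under each. It was -0.31 with a length offset, -0.22 with log2(FPKM + 1), -0.23 with log2(FPKM + 0.1), -0.22 without an FPKM filter and -0.31 with the deposited voom values, where the median over all genes moved to -0.06, 0.12, 0.14, 0.00 and 0.18. Leaving out a library gave a median between -0.51 and -0.39, between 22 and 38 lower genes and between 0 and 6 higher. The length offset gave 24 lower and 4 higher genes, and DESeq2 and the absence of a count filter gave 2 higher each. The test of any change called 46 with a GC offset and between 20 and 42 without a library.

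For day 1 against day 0, lower genes numbered 3 without a count filter, 12 with other libraries in the fit, 2 with a length offset, 20 with a GC offset, 18 with the GC offset and the replicate block, 0 in the FPKM settings, 2 with voom values, and between 1 and 5 without a library. The median was -0.045 with log2(FPKM + 1), -0.049 with log2(FPKM + 0.1), -0.047 without an FPKM filter and between -0.39 and -0.17 without a library. For day 2 against day 1, lower genes numbered 18 with a GC offset, 13 with the GC offset and the block, and between 1 and 6 without a library. Higher genes numbered 3 without a count filter and between 0 and 12 without a library.

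For day 3 against day 2, DESeq2, the absence of a count filter, the length offset and both GC settings called 1 gene higher each, and the GC offset called 2 lower, or 1 with the block. Higher genes numbered between 0 and 1 without a library. The median was -0.0026 with a length offset, -0.0561 and -0.0567 with FPKM at pseudocounts 1 and 0.1, -0.059 without an FPKM filter, -0.0646 with voom values, and between -0.103 and -0.071 without a library. For sorted day 3.5 against day 3 the median was 0.10 with RLE and with DESeq2, 0.10 with a GC offset, 0.12 with a length offset, 0.0018 and 0.0027 with FPKM at pseudocounts 1 and 0.1, 0.0012 without an FPKM filter, 0.0209 with voom values, and between 0.0453 and 0.112 without a library, and the GC offset with the block called 1 higher.

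The replicate block, with numbers not known to pair the libraries, gave 31 lower genes between day 3 and day 0, 2 for day 1 against day 0, 2 for day 2 against day 1, and a median of 0.0496 for the sorted libraries. Values of the opposite sign with a call were seen for Cox6a1 with the GC offset (-0.45 for day 2 against day 1 and -0.61 for day 3 against day 0, or -0.61 with the block too) and for Ndufab1 between day 3 and day 0 with FPKM (-0.37 with pseudocount 1 and unfiltered, -0.38 with 0.1). Of 27 called results of named genes, 8 kept their call under all settings that gave a p. The cause was not tested for any of these shifts. The smallest change called between day 3 and day 0 was -27.3%, and the part of the lower depth of the sorted libraries in their lack of calls was not tested.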
